A study of Mus musculus with 46 samples.

Results

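The genes described here are 9 enzymes of myelin galactolipid and ceramide metabolism, Ugt8a, Fa2h, Gal3st1, Aspa, Cers2, Degs1, Sptlc2, Elovl1 and Elovl7, measured by bulk RNA-seq in the left hippocampus of P17 BALB/cByj mouse pups. They were picked by gene symbol from a table of 52636 genes, by a rule that uses no value but with earlier results of these data known. Expression is given in TPM, the share of a transcript among all transcripts after correction for its length, scaled to a fixed total. All 9 were among the 13244 genes tested, the minimum being a rearing group mean of 3 TPM. The 46 libraries, 1 per pup, came from 15 control (CTL) pups (9 female, 6 male) kept with ample bedding and a nestlet, 16 limited bedding (LB) pups (9 female, 7 male) kept from birth with little bedding and no nestlet, and 15 pups under unpredictable postnatal stress (UPS; 7 female, 8 male). The labels name no transgene, and all pups were killed under chloral hydrate anesthesia. Some pups were littermates, and since no label gives the litter, every p-value counts each pup as independent and comes out too small if pups of a litter are alike.

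Galactosylceramide and its sulfated form, sulfatide, are the glycolipids typical of myelin, the membrane that oligodendrocytes wrap around axons. Ceramide is built in the endoplasmic reticulum from serine and an activated fatty acid, receives a very long acyl chain that may carry a hydroxyl group, and is then joined to galactose and sulfated. Myelin formation in the rodent hippocampus takes place largely after birth, so pups of this age are examined while these lipids are being laid down.

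Among the libraries, between 21150 and 24707 genes had a TPM above 0, and mitochondrial transcripts took 9.52% to 14.2% of the TPM. Depth is unknown, because TPM does not preserve it. Genes of hippocampal neurons were abundant in every library (10 genes, summed TPM from 1500 to 2022 in CTL), whereas 4 of 6 Schwann cell genes averaged under 1 TPM. The female UPS pup 2 stood apart, with a median Spearman correlation of 0.938 to the other libraries against 0.976 for the next lowest. The female UPS pup 1 has a title naming UPS and a field naming LB, and its title was followed. Of the 13244 genes, 7036 (53.1%) differed between the sex labels when the number 9 pups were left out, and on the resulting score both female number 9 pups (CTL 0.0910, LB 0.108) lay within the range of the males (0.0664 to 0.157) and outside that of the other females (-0.143 to -0.0702). The column headers give both an earlier name without the mark for females. In CTL and LB, the paper counts more males and fewer females than the labels do. The score left out 6 sex-linked genes, and it cannot tell sex from anything else that separated the male from the female libraries. Both pups are kept as female, as labelled, also in the counts of pups below the mean of their sex. Where counting both as male or leaving them out changed a call, this is said beside the result. The summed TPM of 7 choroid plexus genes ran from 9.68 to 2580 within LB, from 11.4 to 675 in CTL and from 16.6 to 1413 in UPS. Against CTL, 1 of 5 blood genes was higher in LB and 3 of 5 in UPS, beside 3.71% and 5.59% of all genes. The part of either in the results below was not tested.

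Promoters of 8 of the 9 genes were found in a RefSeq table of mouse promoters (GRCm38.p6), with 12 start sites in all, each window running from 250 bases before to 50 bases after the start. They are printed for a galactolipid enzyme that was lower in LB (Ugt8a), for an enzyme that was also lower and whose window had the least G and C of the 12 (Aspa), and for a ceramide enzyme that did not pass in any comparison (Sptlc2). Capitals mark exact matches, on either strand, to the letters of a GC box (GGGCGG), to TATAAA, the letters of a so-called TATA box, or to an E box (either CAGCTG in the first of 2 forms searched, or CATCTG in the other), and matches can overlap.
Ugt8a, chr3:125938603-125938902, minus strand: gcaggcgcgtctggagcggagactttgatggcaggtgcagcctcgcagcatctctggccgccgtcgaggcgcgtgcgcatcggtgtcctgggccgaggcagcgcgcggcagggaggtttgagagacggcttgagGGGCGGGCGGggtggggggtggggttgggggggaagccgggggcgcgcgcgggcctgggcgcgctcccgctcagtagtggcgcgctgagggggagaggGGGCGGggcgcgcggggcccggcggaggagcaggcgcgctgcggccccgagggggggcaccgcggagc
Aspa, chr11:73324588-73324887, minus strand: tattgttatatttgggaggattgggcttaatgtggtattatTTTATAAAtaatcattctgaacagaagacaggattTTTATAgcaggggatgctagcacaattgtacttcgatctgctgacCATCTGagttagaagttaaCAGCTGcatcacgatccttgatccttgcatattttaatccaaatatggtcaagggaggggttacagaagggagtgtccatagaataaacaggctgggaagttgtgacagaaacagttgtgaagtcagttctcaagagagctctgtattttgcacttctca
Sptlc2, chr12:87388306-87388605, minus strand: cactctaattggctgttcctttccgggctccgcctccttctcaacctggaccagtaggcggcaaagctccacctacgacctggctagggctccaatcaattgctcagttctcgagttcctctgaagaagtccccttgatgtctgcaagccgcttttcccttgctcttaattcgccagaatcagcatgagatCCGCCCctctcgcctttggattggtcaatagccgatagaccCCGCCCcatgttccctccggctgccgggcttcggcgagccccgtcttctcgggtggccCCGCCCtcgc

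The Ugt8a window held 78.3% G and C and 40 CpG, beside medians of 52.7% and 7 over the 32851 windows of the table, and 3 GC box matches. The Aspa window had 39% G and C and 2 CpG, no GC box and 3 TATA box matches, and it was the only 1 of the 12 windows with a TATA box match (13.6% of all windows hold one). Sptlc2 had 59.3% G and C, 19 CpG and 3 GC box matches. Over the 12 windows, 6 held a GC box (35.7% of all windows), 3 the E box CAGCTG (16.3%), 2 the E box CATCTG (17.2%) and 2 the Sox letters ACAATG (12.6%), these being overlapping windows of Gal3st1 that share a single match, while none held the Sox letters ACAAAG (18.7%) or the Myrf letters CTGGCAC (5.01%) and CTGGTAC (2.24%). These are matches of letters within a short window and no measure of binding.

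In CTL pups, Ugt8a had the highest mean level of the 9 genes (107 ± 29.6 TPM, SD, n = 15) and Aspa the lowest (5.82 ± 1.57 TPM). Cers2 (68.8 ± 9.17 TPM) and Degs1 (68.5 ± 11.8 TPM) came next and did not differ beyond their spread, followed by Fa2h (35.7 ± 9.98 TPM), while Sptlc2 (21.8 ± 1.59 TPM), Elovl1 (20.3 ± 4.03 TPM), Gal3st1 (17.2 ± 4.10 TPM) and Elovl7 (16.4 ± 3.57 TPM) overlapped. In LB pups the order changed, with Degs1 first (75.2 ± 22.3 TPM, SD, n = 16), Ugt8a next (61.7 ± 27.3 TPM) and Sptlc2 (22.8 ± 2.03 TPM) above Fa2h (19.0 ± 7.61 TPM). Neither of those pairs differed beyond its spread within LB.

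**Figure D1:**
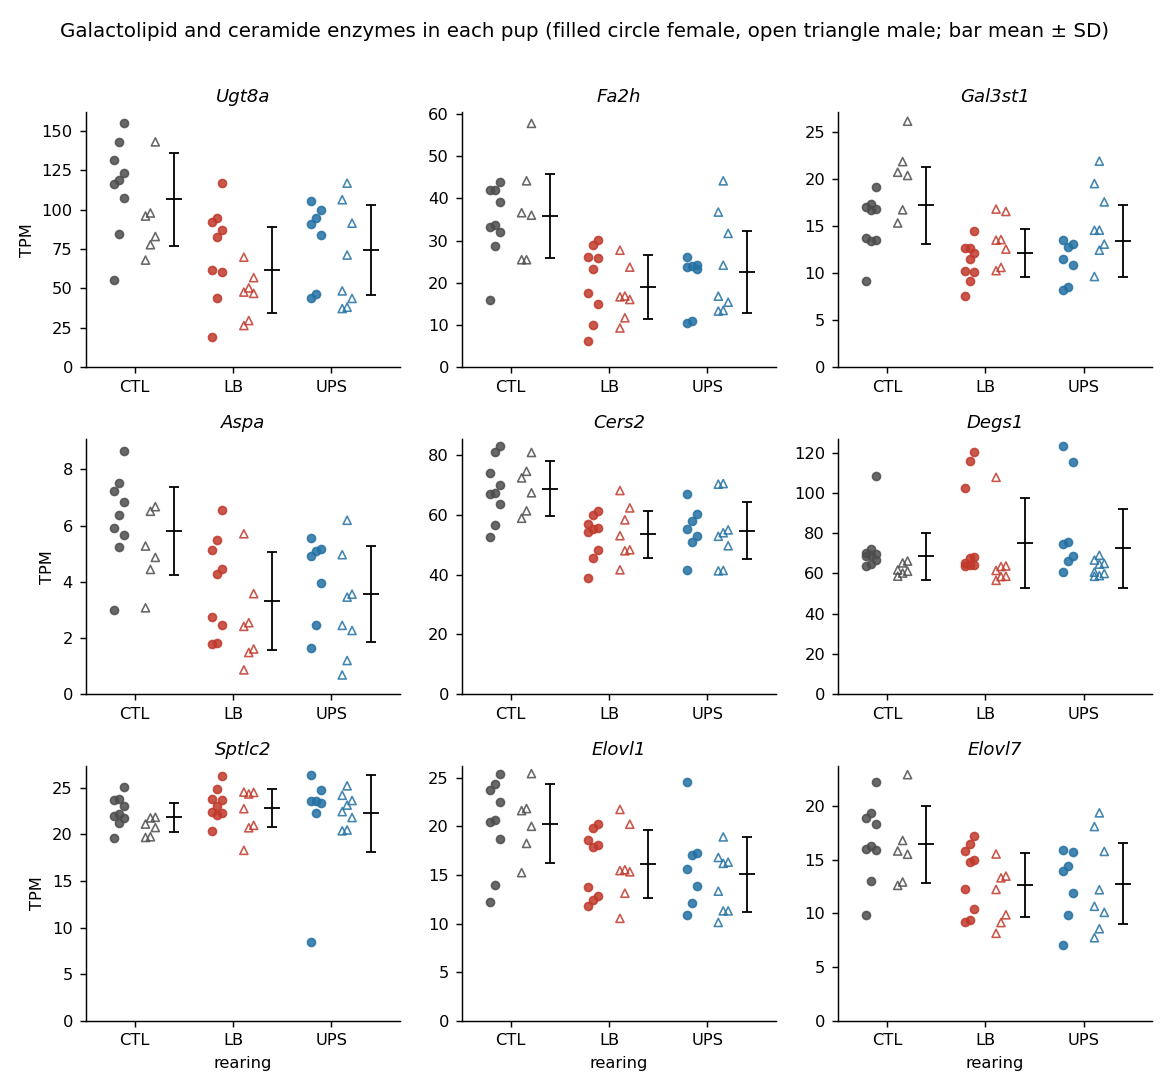
TPM (vertical axes, from 0) of each of the 9 genes in every pup by rearing, with filled circles for females, open triangles for males and a bar for the mean ± SD of the rearing group. Fa2h, Gal3st1, Aspa and Cers2 were called lower in both LB and UPS, with overlap between groups, and 7 pups stand apart for Degs1, at 103 to 123 TPM.

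LB pups were compared with CTL pups to ask which steps of galactolipid and ceramide synthesis differed with limited bedding. The enzymes that build galactosylceramide and sulfatide, hydroxylate their fatty acids and supply acetate were lower in LB, with mean TPM at 53.3% to 70.6% of the CTL mean. Cers2 and Elovl7 were lower by a smaller amount, at 77.8% and 77.0%. Sptlc2, at the start of ceramide synthesis, and Degs1, at its end, were at 105% and 110% and did not pass. In limma on log2(TPM + 1), with the male and the female difference averaged, 6 of the 9 genes were called lower in LB at an adjusted p under 0.05 and 0 higher. Of all genes tested, 7.54% were called in this comparison, 3.84% lower and 3.71% higher. The median log2 fold change of the 9 genes was -0.36, beside 0.01 over all genes tested. In bulk tissue, fewer oligodendrocytes and less RNA per oligodendrocyte cannot be told apart.

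Ugt8a (chr3:125865271-125938619, minus strand, GRCm38, as for all positions here) encodes the galactosyltransferase that makes galactosylceramide from ceramide. Its TPM ran from 55.5 through a median of 107 to 155 in CTL and from 18.9 through 58.7 to 117 in LB. Of the 16 LB pups, 15 lay below the CTL mean of their sex and 7 below every CTL pup, although the ranges overlapped. Expression in LB differed from CTL by -0.88 on the log2 scale, with a standard error (SE) of 0.19 (limma adjusted p = 0.0057).

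Fa2h (chr8:111345135-111393824, minus strand) encodes the hydroxylase that adds the hydroxyl group to the fatty acids of myelin galactolipids. CTL values were 15.8 at the lowest, 36.0 at the median and 57.8 at the highest, and LB values were 6.15, 17.2 and 30.1 TPM. All 16 LB pups were below the CTL mean of their sex, and 11 of the 15 CTL pups were above the highest LB pup. The log2 fold change of -0.96 (SE 0.19, limma adjusted p = 0.0034) was the largest of the 9 genes.

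Gal3st1 (chr11:3983636-3999326, plus strand) encodes the sulfotransferase that turns galactosylceramide into sulfatide. It ranged from 9.14 through 16.8 to 26.1 TPM in CTL and from 7.52 through 12.3 to 16.8 TPM in LB, with 16 of 16 LB pups below the CTL mean of their sex. The LB range lay almost wholly inside the CTL range, and only 1 LB pup was below every CTL pup. The log2 fold change of -0.48 had a standard error of 0.095 and an adjusted p of 0.0032 in limma.

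Aspa (chr11:73304992-73329596, minus strand) encodes aspartoacylase, which oligodendrocytes use to free acetate for lipid synthesis from the N-acetylaspartate of neurons. It was the least abundant of the 9, at 2.98, 5.91 and 8.67 TPM (lowest, median and highest) in CTL and 0.858, 2.64 and 6.54 TPM in LB. In 9 of the 16 LB pups Aspa was below every CTL pup, the most for any of these genes. Its log2 fold change of -0.74 (SE 0.17, limma adjusted p = 0.0066) is understated at such low TPM, because 1 is added before the logarithm.

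Cers2 (chr3:95314791-95323599, plus strand) encodes the ceramide synthase that prefers very long acyl chains. CTL pups lay between 52.7 and 83.1 TPM around a median of 67.4, and LB pups between 38.8 and 68.2 around 54.9, with all 16 LB pups below the CTL mean of their sex. The change was small and regular, a log2 fold change of -0.36 (SE 0.074, limma adjusted p = 0.0042). Cers2 overlaps Setdb1, a gene of the opposite strand at a mean of 30.4 TPM, and the use of strand in counting is not given in the sources used here, so part of the reads could belong to either gene.

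The elongases extend fatty acids toward the chain lengths found in myelin lipids. Elovl7 (chr13:108214404-108285683, plus strand), which lengthens saturated long chains, went from 9.88 through 16.1 to 22.9 TPM in CTL and from 8.15 through 12.8 to 17.2 TPM in LB. It was lower in LB with a log2 fold change of -0.36 (SE 0.11, limma adjusted p = 0.040), a call that was lost in 17 of the 31 fits that left out 1 pup and when the number 9 pups were left out (adjusted p = 0.064). Elovl1 (chr4:118428093-118432953, plus strand), which makes the very long saturated and monounsaturated chains, ranged from 12.2 through 20.6 to 25.4 TPM in CTL and from 10.5 through 15.5 to 21.7 TPM in LB. Its log2 fold change of -0.32 (SE 0.11) had an adjusted p of 0.063 in limma, which passed with the number 9 pups counted as male (0.048) and in 6 of the 31 fits that left out 1 pup. Elovl1 overlaps Cdc20 of the opposite strand (mean 2.41 TPM).

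Sptlc2 (chr12:87305058-87388355, minus strand) encodes a catalytic subunit of serine palmitoyltransferase, the first step of ceramide synthesis, and it is used by most cell types. It lay between 19.6 and 25.0 TPM in CTL (median 21.8) and between 18.3 and 26.3 TPM in LB (median 22.9), and 11 of 16 LB pups were above the CTL mean of their sex. The log2 fold change was 0.07 with a 95% interval from -0.02 to 0.15 (limma adjusted p = 0.34). Degs1 (chr1:182275772-182282804, minus strand) encodes the desaturase that completes ceramide. Its medians were 66.2 TPM in CTL and 64.3 TPM in LB, its ranges 58.6 to 109 and 56.6 to 120, and its log2 fold change 0.10 with an interval from -0.10 to 0.31 (limma adjusted p = 0.57).

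UPS was compared with CTL in the same way, and the same 15 CTL pups served both comparisons. Of the 9 genes, 5 were lower in UPS at an adjusted p under 0.05 (Fa2h, Gal3st1, Aspa, Cers2 and Elovl1) and none was higher, beside 10% of all genes tested called, 4.44% lower and 5.59% higher. Mean TPM of these 5 stood at 61.3% (Aspa) to 79.6% (Cers2) of the CTL mean. The median log2 fold change of the 9 genes was -0.40, beside 0.00 over all genes.

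Fa2h was at 10.4, 23.7 and 44.1 TPM (lowest, median and highest) in UPS, with 13 of 15 UPS pups below the CTL mean of their sex. The hydroxylase had a log2 fold change of -0.72 (SE 0.19, limma adjusted p = 0.014). Aspa ran from 0.676 through 3.55 to 6.19 TPM, with 14 of 15 UPS pups below that mean and a log2 fold change of -0.62 (SE 0.18, limma adjusted p = 0.026). For both genes the groups overlapped, and only 5 of the 15 UPS pups for Fa2h and 6 for Aspa were below every CTL pup. Of the 15 CTL pups, 2 for Fa2h and 7 for Aspa were above every UPS pup.

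For the sulfotransferase gene Gal3st1, UPS pups ranged from 8.18 through 13.1 to 21.9 TPM, and its log2 fold change was -0.40 (SE 0.11, limma adjusted p = 0.018). Cers2 ranged from 41.3 through 54.1 to 70.5 TPM, with a log2 fold change of -0.33 (SE 0.081, limma adjusted p = 0.010). Elovl1 ranged from 10.1 through 15.6 to 24.6 TPM, and 14 of 15 UPS pups were below the CTL mean of their sex. The elongase had a log2 fold change of -0.41 (SE 0.11, limma adjusted p = 0.020).

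Ugt8a ran from 37.2 through 83.9 to 117 TPM in UPS, a mean at 69.9% of CTL, and its log2 fold change of -0.53 (95% interval -0.90 to -0.16) had an adjusted p of 0.057 in limma, just above the threshold. Elovl7 was at 7.11, 12.2 and 19.4 TPM, with a log2 fold change of -0.36 (interval -0.63 to -0.09, limma adjusted p = 0.074). Degs1 had a log2 fold change of 0.09 (interval -0.08 to 0.26) and Sptlc2 one of 0.00 (interval -0.19 to 0.20). Sptlc2 was at 8.49 TPM in the female UPS pup 2 and between 20.4 and 26.4 TPM in the other 14 UPS pups. Without that pup its log2 fold change was 0.10 (limma adjusted p = 0.053), and the same 5 of 9 genes were called, with log2 fold changes of -0.65 for Fa2h, -0.54 for Aspa, -0.38 for Elovl1, -0.37 for Gal3st1 and -0.33 for Cers2.

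**Figure D2:**
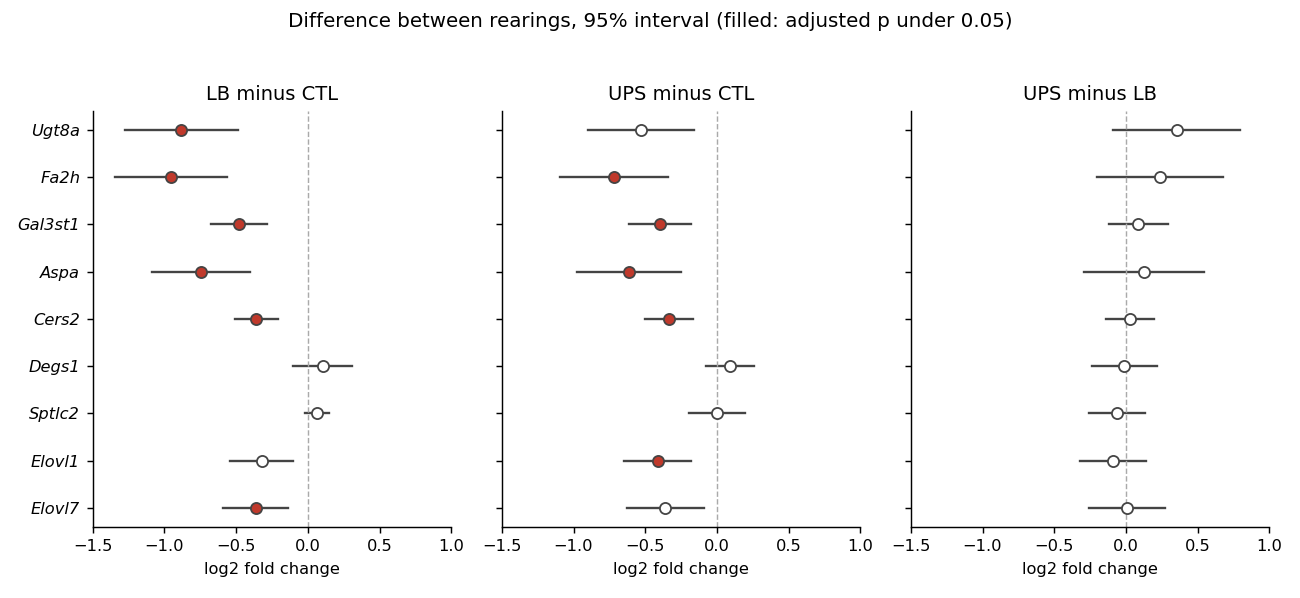
Log2 fold change (horizontal axes, log2(TPM + 1) scale) with its 95% interval for each gene in the 3 comparisons, filled where the adjusted p is under 0.05. Filled points stand at 6 genes for LB minus CTL, 5 for UPS minus CTL and 0 for UPS minus LB.

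LB and UPS pups were also compared directly, to ask whether the stress models differed in these enzymes. None of the 9 genes passed in limma (0 of 9 had an unadjusted p under 0.05), where 6 of all 13244 genes did (0.0453%, with 1680 at an unadjusted p under 0.05). Ugt8a had the largest difference, with UPS above LB by 0.35 on the log2 scale and a 95% interval from -0.09 to 0.80. Fa2h followed at 0.24 (interval -0.20 to 0.68), and Elovl1 was the farthest in the other direction, at -0.09 (interval -0.32 to 0.14). The intervals of Cers2 (-0.14 to 0.20) and Sptlc2 (-0.26 to 0.13) were among the narrowest. These intervals do not show that the models act alike in these enzymes.

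The difference from CTL was then examined in each sex. In LB females and in LB males, 7 of the 9 genes lay below 0 with intervals that did not reach 0, and these were the same 7 (all but Degs1 and Sptlc2). Fa2h had a log2 fold change of -0.83 in females (interval -1.33 to -0.32) and -1.08 in males (interval -1.68 to -0.49), and Ugt8a had -0.74 (interval -1.25 to -0.23) and -1.02 (interval -1.63 to -0.42). Cers2 was at -0.36 in both sexes. By the same criterion, an unadjusted p under 0.05, 1050 of all genes were lower in females (7.93%) and 750 in males (5.66%). After adjustment over all genes none of the 9 passed within a sex as labelled, where limma called 3 genes in females (0.0227%, 1918 at an unadjusted p under 0.05) and 0 in males (1821).

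These values depend on the number 9 pups, an alternative for the within-sex values that was added after the data were seen. With both counted as male, limma called 5 of the 9 genes lower in LB males (Ugt8a, Fa2h, Gal3st1, Aspa and Cers2), beside 3.89% of all genes, and with both left out 3 (Ugt8a, Fa2h and Gal3st1), beside 0.951%. Ugt8a in males was then at -1.20 (limma adjusted p = 0.0055) and -1.02 (limma adjusted p = 0.036). In females Ugt8a was at -0.53 and Fa2h at -0.62 in both settings. None of the 9 passed there, where limma called 1 and 0 of all genes (1631 and 1680 at an unadjusted p under 0.05). Of the 9, 5 rather than 7 had intervals below 0, beside 7.12% and 7.18% of all genes lower at an unadjusted p under 0.05.

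The male and the female difference were compared by an interaction term. No gene passed in limma for LB (293 at an unadjusted p under 0.05) or for UPS (488), and the smallest unadjusted p among the 9 genes was 0.44 for LB and 0.25 for UPS. For Ugt8a in LB the male minus female difference was -0.28, with an interval from -1.07 to 0.51, an interval that reaches past the size of the LB effect itself. It was -0.68 (interval -1.35 to 0.00095) with the number 9 pups as male and -0.49 (interval -1.15 to 0.16) without them, and the interaction called 0 genes in either setting (499 and 403 at an unadjusted p under 0.05). In UPS females 7 of the 9 genes, and in UPS males 5, had intervals below 0. As labelled, 10.6% and 6.46% of all genes were lower at an unadjusted p under 0.05, and limma called none of the 9 in either sex (217 genes, 1.64%, in females and 5, 0.0378%, in males). With the number 9 pups as male, 5 and 6 of the 9 had such intervals, beside 8.52% and 8.22% of all genes. Without them it was 5 and 5, beside 8.30% and 6.86%. Again none of the 9 was called, where limma called 93 genes in females and 37 in males with these pups as male, and 72 and 13 without them.

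**Figure D3:**
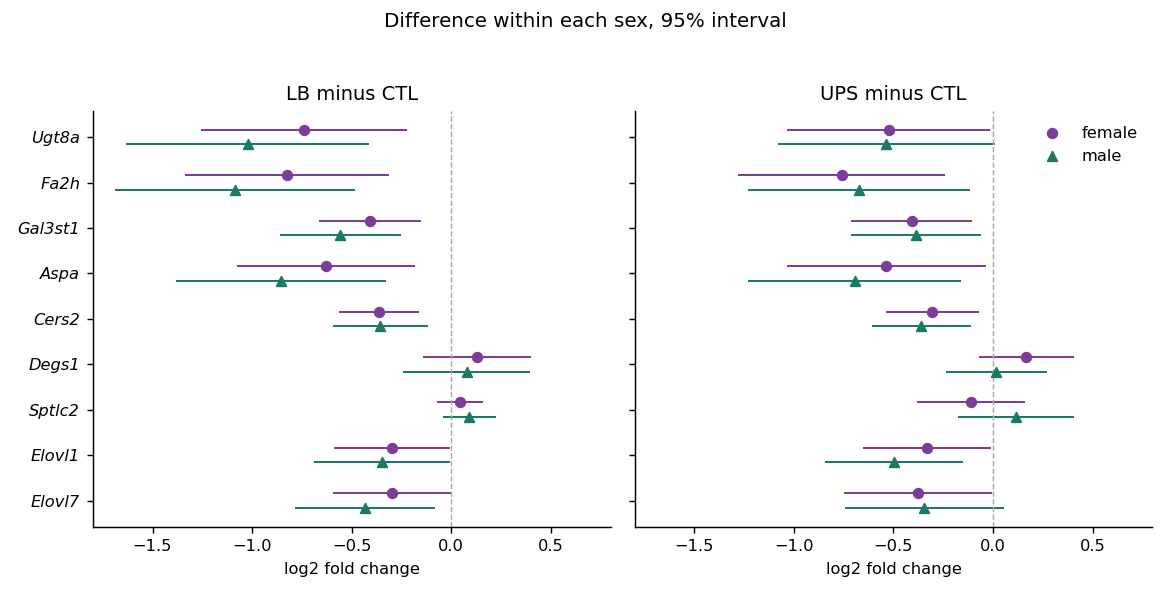
Log2 fold change with its 95% interval within females (circles) and males (triangles) for LB minus CTL and UPS minus CTL. In LB, 7 genes lie below 0 in each sex and the intervals of the sexes overlap for each gene.

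Levels also differed by sex label for 4 of the 9 genes in a fit over the 44 libraries without the number 9 pups, beside 53.1% of all genes, so this share is no result about these enzymes. Gal3st1 was higher in males (log2 difference of males minus females 0.34, limma adjusted p = 0.00055). Ugt8a (-0.45, adjusted p = 0.010), Aspa (-0.40, adjusted p = 0.026) and Degs1 (-0.26, adjusted p = 0.0062) were lower in males. For Degs1 this rests in part on 7 pups with far higher values, described below. Of these, 6 were female, among them the LB number 9 pup, which is outside this fit. In CTL pups the means were 115 ± 30.1 TPM (SD, n = 9) in females and 94.3 ± 26.4 TPM (SD, n = 6) in males for Ugt8a, and 15.2 ± 3.03 and 20.2 ± 3.85 TPM for Gal3st1. Unlike the fit, these female means include the CTL number 9 pup, which had the highest Gal3st1 of the CTL females (19.2 TPM). The sex of the pups and anything else that separated the male from the female libraries cannot be told apart.

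The 9 enzymes were set beside 10 structural genes of mature oligodendrocytes (among them Mbp, Mog, Mag, Cnp and Mal), whose mean log2(TPM + 1) serves as an index. The index was 7.44 ± 0.44 (SD, n = 15) in CTL, 6.36 ± 0.79 (SD, n = 16) in LB and 6.74 ± 0.66 (SD, n = 15) in UPS. Of its 10 genes, 10 were lower in LB and 9 in UPS, beside 3.84% and 4.44% of all genes. Mog, a protein of the outer myelin surface, had a log2 fold change of -1.20 in LB (limma adjusted p = 0.0034) and Mbp, the basic protein of compact myelin, one of -0.85 (adjusted p = 0.0032). Among 10 genes of newly formed oligodendrocytes, 3 were lower in LB (Enpp6, Neu4 and Cnksr3) and 1 was higher (Rras2), where 3.71% of all genes were higher. Of 10 progenitor genes 1 was lower (Gpr37l1) and 1 higher (Ptprz1), and Pdgfra, the receptor that marks progenitors, stood at 58.5 ± 5.12 TPM in CTL and 59.6 ± 5.56 TPM in LB (limma adjusted p = 0.75).

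Relative to this index each of the 9 genes was higher in LB than in CTL, by 0.14 (Fa2h), 0.22 (Ugt8a), 0.36 (Aspa), 0.62 (Gal3st1), 0.73 (Elovl7), 0.74 (Cers2), 0.78 (Elovl1), 1.17 (Sptlc2) and 1.20 (Degs1) on the log2 scale. These genes thus differed from CTL by less than the mean of the 10 myelin genes did, and Fa2h and Ugt8a came closest to it. The place of Aspa, whose fall is understated when 1 is added, depended on the settings. Over the alternatives other than single pups left out, Aspa ran from 0.19 to 0.36, Ugt8a from 0.17 to 0.25 and Fa2h from 0.11 to 0.14. In limma, 6 of the 9 passed (all but Ugt8a, Fa2h and Aspa), beside 99.7% of all genes. Subtracting the index gives most genes the same spread, which limma then shares, so a fit in which each gene has its own variance was added after the data were seen. It called all 9 (SE 0.055 for Ugt8a and 0.063 for Fa2h, adjusted p = 0.00058 and 0.030), beside 99.5% of all genes, and Fa2h kept the call in 28 of 31 fits that left out 1 pup. A share so close to that of all genes says nothing particular of these enzymes. In UPS the same fit called 6 of the 9, beside 93.8% of all genes (limma 2 of the 9, beside 94.9%), and Fa2h (-0.03), Aspa (0.07) and Elovl1 (0.28) did not pass.

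Across the 46 pups, after the mean of each rearing and sex group was removed, Ugt8a and Fa2h followed the index most closely, with Pearson r of 0.97 for both and slopes of 0.86 and 0.85 log2 units per unit of the index. Aspa had r = 0.90 and a slope of 0.73. Gal3st1 (r = 0.85, slope 0.38), Elovl7 (r = 0.81, slope 0.44), Elovl1 (r = 0.70, slope 0.34) and Cers2 (r = 0.74, slope 0.26) rose less per unit, and Sptlc2 had r = -0.10. Spearman values were 0.97 for Ugt8a and for Fa2h, 0.93 for Aspa and between 0.72 and 0.86 for the other 4. Without the pups farthest from the median r was 0.97, 0.96 and 0.90 for Ugt8a, Fa2h and Aspa, and -0.27 for Sptlc2. All values come from the same libraries and share their TPM scaling, and they are given as a description with no test. With the index as a covariate limma called 0 of the 9 genes in any of the 3 comparisons (0 at an unadjusted p under 0.05 in LB or UPS against CTL, 1 in LB against UPS). Of all 13244 genes it called 0, 28 and 4, so this count says nothing particular of these enzymes.

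The same pups stood at the ends of the ranges for several enzymes. The female CTL pup 2 was the lowest CTL pup for 7 of the 9 genes, all but Degs1 and Sptlc2. In LB the female pup 9 was lowest for Ugt8a, Fa2h and Gal3st1 and the male pup 2 for Aspa, Elovl1 and Elovl7, and in UPS the male pup 1 was highest for 5 genes (Ugt8a, Fa2h, Gal3st1, Aspa and Elovl7). Without the female CTL pup 2, 7 of the 9 genes were called lower in UPS, with Ugt8a at -0.59 (limma adjusted p = 0.025) and Elovl7 at -0.40 (limma adjusted p = 0.038) added, beside 1439 of all 13244 genes. In LB 7 of the 9 were called without that pup, with Elovl1 added at -0.36 (limma adjusted p = 0.023), beside 1158 genes. Between enzymes, the galactosyltransferase and the hydroxylase genes Ugt8a and Fa2h went together most closely (Pearson r = 0.97, Spearman rho = 0.96, over 46 pups), followed by Fa2h with Gal3st1 (r = 0.89, rho = 0.88) and with Aspa (r = 0.89, rho = 0.90). Sptlc2 had r between -0.09 and 0.21 with the enzymes other than Degs1, and rho between -0.17 and -0.03. Its highest r, with Elovl7, was -0.07 without the female UPS pup 2 and the male LB pup 5.

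**Figure D4:**
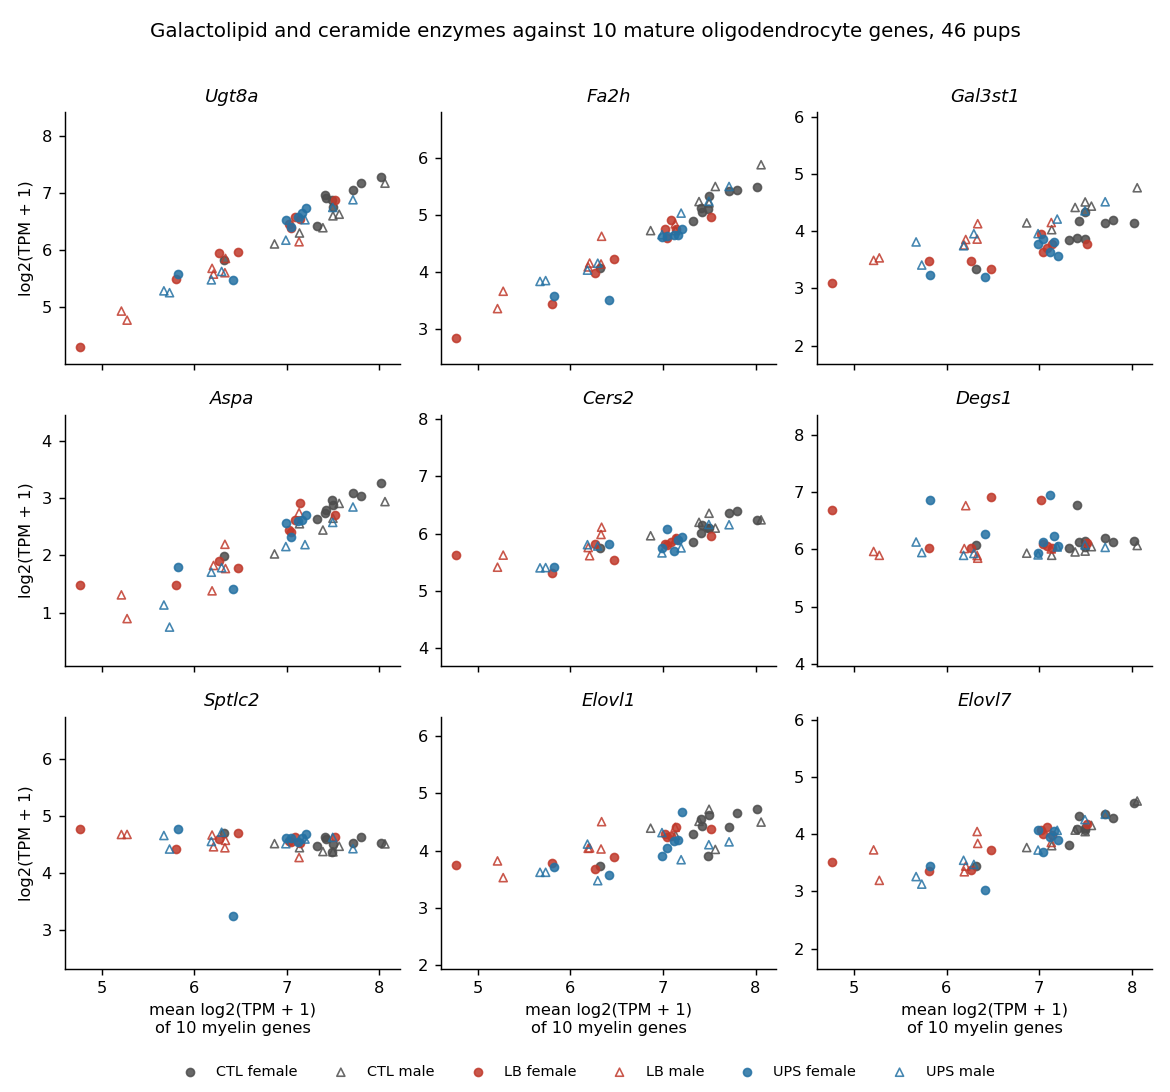
Log2(TPM + 1) of each gene (vertical axes, each spanning the same number of log2 units) against the mean log2(TPM + 1) of the 10 mature oligodendrocyte genes in 46 pups, by rearing (colour) and sex (symbol). Ugt8a and Fa2h climb steeply along the index, Cers2 and Gal3st1 less, Sptlc2 does not follow it, and Degs1 falls into separate ranges.

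Genes among the most like each enzyme over these 46 pups were found by Pearson r of the same values, again as a description. Ugt8a was closest to Cldn11 (r = 0.98), Tmem88b (0.98) and Mag (0.97), and Fa2h to Mog, Tmem88b and Ugt8a (0.97 each). Gal3st1 was closest to Fa2h (0.89), Gsn (0.89) and Cnp (0.88), and Aspa to Mog (0.93), Gjb1 (0.91) and Ermn (0.91). Elovl7 was closest to Aspa, Gjb1 and Gsn (0.88, 0.88 and 0.87), and for Elovl1 r was 0.75 with Gjb1 and 0.73 with Gpr62. Cers2 had Plekhh1 (0.82), Trf (0.78) and Gsn (0.78). For Sptlc2 the closest were Vcam1, Hnrnpa1 and Trib2 (0.92, 0.92 and 0.91), values that rest in part on the female UPS pup 2 and the male LB pup 5, without which r was 0.66, 0.71 and 0.75.

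Degs1 did not vary evenly. In 39 pups it lay between 56.6 and 75.9 TPM, and in the other 7 between 103 and 123 TPM, with no pup between these ranges. The upper range held 1 CTL pup (female 3), 4 LB pups (females 2, 8 and 9 and male 4) and 2 UPS pups (females 3 and 6), so 6 of the 7 were female. No pooled correlation is given for Degs1 because of this split. Over the 39 pups its r was 0.02 with Ugt8a and -0.08 with Sptlc2, the enzyme upstream of it. The group means removed before this were taken over all pups, the upper ones included. The split therefore still enters these values, and nothing is concluded from them.

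The remaining genes of the pathway were read from lists by role. In de novo ceramide synthesis, which starts with serine palmitoyltransferase and ends with ceramide, 0 of 12 tested genes passed in LB, in UPS or between LB and UPS, with a list median of -0.01 in LB. The smallest p in LB belonged to Zdhhc9, a protein palmitoyltransferase that makes no ceramide itself, at a log2 fold change of -0.11 (limma adjusted p = 0.098). Sptlc1, the partner of Sptlc2, was at 31.1 ± 1.31 TPM in CTL and 30.8 ± 2.15 TPM in LB.

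In very long chain fatty acid elongation, 1 of 15 genes was lower in LB, and in UPS 1 was lower and 1 higher. Slc27a1, a fatty acid transporter, fell from 80.9 ± 13.8 TPM in CTL to 68.5 ± 10.6 in LB and 65.8 ± 11.1 in UPS, with log2 fold changes of -0.26 (limma adjusted p = 0.0049) and -0.35 (adjusted p = 0.0012). Elovl4, the elongase of the longest chains, was higher in UPS by 0.11 (limma adjusted p = 0.043) and at 0.09 in LB (adjusted p = 0.054). The list median was -0.03 in both comparisons.

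Of 15 genes that supply and transport galactolipids and sulfate, 4 were lower in LB (Mal, Pllp, Gltp and Papss2) and 2 in UPS (Mal and Pllp), none higher. Of all genes, 3.84% were lower in LB and 4.44% in UPS. Mal, a proteolipid of galactolipid-rich membrane that also belongs to the index above, went from a median of 114 TPM in CTL to 32.8 in LB and 73.0 in UPS, with log2 fold changes of -1.60 (limma adjusted p = 0.0034) and -1.01 (adjusted p = 0.030). Pllp, plasmolipin, had -0.48 (adjusted p = 0.0032) and -0.38 (adjusted p = 0.011). Gltp, which carries glycolipids between membranes, had -0.35 in LB (limma adjusted p = 0.0049), and Papss2, which makes the sulfate donor for sulfatide, had -0.20 (adjusted p = 0.033). The other 11 genes of this list, among them the UDP-galactose transporter Slc35a2, did not pass in LB, and the list median was -0.02 in LB and -0.13 in UPS.

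Of 10 genes of galactolipid breakdown, Galc, the lysosomal enzyme that removes galactose from galactosylceramide, was lower in LB, at 22.9 ± 1.34 TPM in CTL and 20.9 ± 1.24 TPM in LB (log2 fold change -0.12, limma adjusted p = 0.021). Acer2, a ceramidase of the Golgi, was higher in UPS, at 2.94 ± 0.76 TPM in CTL and 4.67 ± 1.59 TPM in UPS (log2 fold change 0.53, adjusted p = 0.0023), and stood at 3.16 ± 1.44 TPM in LB (adjusted p = 0.93). The difference in Acer2 between LB and UPS did not pass (0.50, adjusted p = 0.12).

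Among 20 tested genes that lead ceramide to sphingomyelin, glucosylceramide, gangliosides or sphingosine phosphate, 2 were higher in LB and 1 was lower, and 4 were higher in UPS. Samd8, which makes a ceramide phosphoethanolamine, rose by 0.14 in LB (limma adjusted p = 0.023) and by 0.21 in UPS (adjusted p = 0.0095), and B4galt6, a lactosylceramide synthase, by 0.09 (adjusted p = 0.033) and 0.12 (adjusted p = 0.0082). St3gal5, the synthase of the ganglioside GM3, rose by 0.10 in UPS (adjusted p = 0.030) and Smpd3, a sphingomyelinase, by 0.13 (adjusted p = 0.049). Smpd4, another sphingomyelinase, had -0.19 in LB (limma adjusted p = 0.041). Of 9 genes of N-acetylaspartate and acetate use, Nat8l, which makes N-acetylaspartate in neurons, was lower in LB (log2 fold change -0.16, limma adjusted p = 0.020) and in UPS (-0.20, adjusted p = 0.0054). None of the tested genes of these 6 lists passed between LB and UPS. The medians of the 2 last lists in LB were both 0.01, and that of the breakdown list was 0.00.

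**Figure D5:**
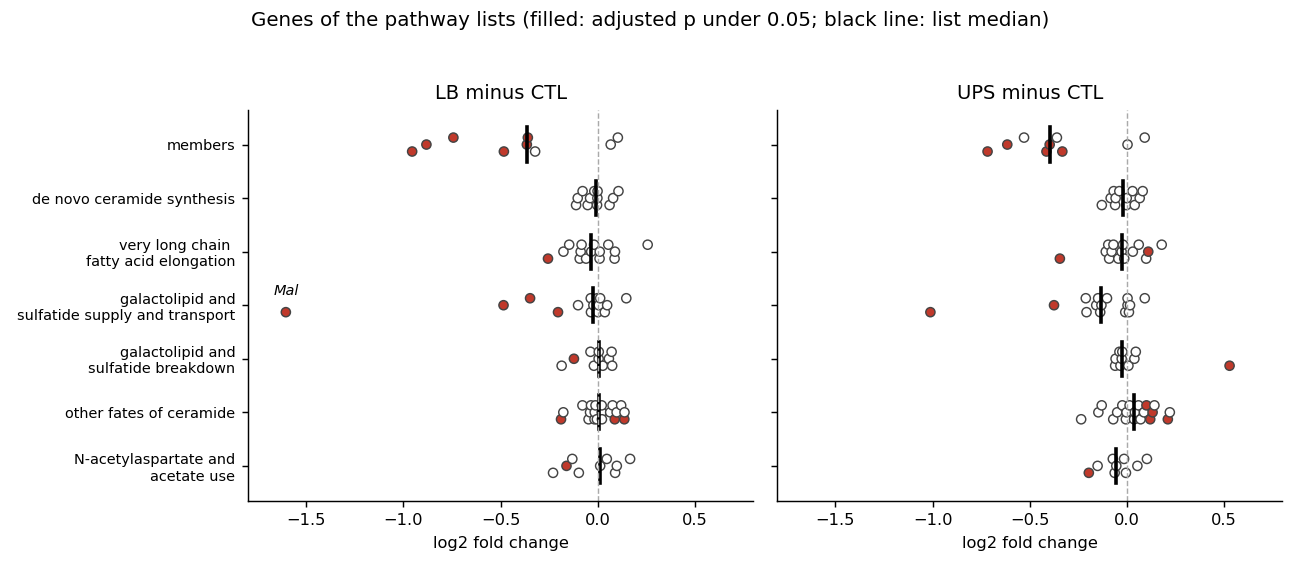
Log2 fold change (horizontal axes) of the tested genes of the 9 enzymes (members) and of 6 pathway lists for LB minus CTL and UPS minus CTL, filled where the adjusted p is under 0.05, with a black line at each list median. The enzymes have medians of -0.36 and -0.40, and the 6 lists have medians from -0.13 (supply and transport in UPS) to 0.04, with Mal farthest to the left.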

How the data were processed

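RNA from the left hippocampus of 46 pups was made into mRNA libraries with the KAPA mRNA HyperPrep kit. The authors trimmed and aligned the reads with HISAT2 to mm10 with GENCODE annotation and deposited TPM values from StringTie (versions not given in the sources used here). Their DESeq2 comparison tables hold fold changes and p-values and were not used. TPM keeps no depth, and the precision therefore rests on the spread between pups.

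Of 52636 genes, 13244 whose mean reached 3 TPM in a rearing group were tested on log2(TPM + 1) with limma 3.58.1 (R 4.3.3), with the 4 rearing and sex groups of each comparison as means, a variance trend and Benjamini-Hochberg adjustment over all genes tested at 0.05. Another gene, Cav2, was left out because a cell held text. Python 3.11.15, pandas 2.3.3, scipy 1.17.1 and matplotlib 3.10.9 were used otherwise, and the fits were tested on simulated data. Alternatives varied the pseudocount, filter, scaling, model, weights, variance, the number 9 pups, an oligodendrocyte covariate, a replicate block and single pups left out.

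The 9 genes and the lists were chosen with earlier results of these data known. By rule, genes to be named from a list were the 3 with the smallest p in LB versus CTL, the gene farthest against the list median, and those past the threshold in another comparison, not all of which are printed. Some genes are not reported here. Genes matched the GENCODE annotation for 99.6% of the table's identifiers, and Cert1, of the list on other fates of ceramide, had no row under that symbol.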

Additional observations from a re-analysis of the deposited data

Results flagged for a closer look

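Among the 54 groups formed by the 9 genes, the rearing and the sex, 3 held a pup far from the others of its group, where chance alone gives about 1 in 20 groups. The female CTL pup 3 had a Degs1 level of 108.6 TPM, the highest of its group, with a gap to the next pup of 0.807 of the group's range. Degs1 was at 107.9 TPM in the male LB pup 4, again the highest, with a gap of 0.861 of the range. Both pups belong to the 7 pups of the upper Degs1 range. Sptlc2 was at 8.49 TPM in the female UPS pup 2, the lowest of its group, with a gap of 0.767 of the range, and this is the pup with the lowest correlation to the other libraries.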

How the results depend on the processing

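Besides leaving out single pups, 14 alternatives were run, and the 9 genes kept their direction and side of the threshold in 106 of 125 values for LB against CTL, 108 of 125 for UPS against CTL and 111 of 125 for LB against UPS. The main counts of genes called were 999, 1329 and 6. Without a filter they were 630 and 879 in the first and second comparison, with rearing alone 579, 254 and 1, and with library weights 1676, 2626 and 98. LB against UPS gave 14 genes without mitochondrial genes and 24 with all 46 libraries in 1 fit. With the oligodendrocyte index as a covariate limma called 0 genes for LB against CTL (1052 at an unadjusted p under 0.05) and 28 for UPS against CTL, and 0 of the 9 genes in both (0 at an unadjusted p under 0.05). Under that covariate these log2 values changed sign: in LB Ugt8a 0.057, Elovl1 0.063, Elovl7 0.048 and Sptlc2 -0.023, in UPS Ugt8a 0.070 and Elovl7 0.045, and in UPS minus LB Fa2h -0.10, Gal3st1 -0.056, Aspa -0.17, Cers2 -0.072, Elovl7 -0.16 and Degs1 0.019. The cause was not tested.

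Sample numbers are shared between groups, but same-numbered pups for the most part did not deviate together. The median correlation was 0.032 over 14 pairs for LB against CTL, with 2 over 0.1 and 3 best matched to their own number. The highest, 0.33, was that of the number 9 pups, which matched their own number best, and its cause was not tested. For UPS against CTL 1 of 13 was over 0.1, and for LB against UPS 2 of 14. With the replicate block the counts of genes were 75, 551 and 0 (1270 at an unadjusted p under 0.05), and 0 and 2 of the 9 genes were called in LB and UPS against CTL, with 7 of 9 at an unadjusted p under 0.05 in each, beside 2324 and 3050 of all genes. Under the block Sptlc2 in UPS was at -0.0065, and in UPS minus LB Degs1 was at 0.066 and Elovl7 at -0.010.

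Other values near 0 changed sign. Sptlc2 in UPS was at -0.0022 with median-of-ratios scaling, -0.0037 with rearing alone and -0.0043 with the number 9 pups as male. In UPS minus LB, Degs1 was at 0.0082 without mitochondrial genes and 0.012 without the number 9 pups, Elovl7 at -0.0072 with rearing alone, -0.0068 with the number 9 pups as male and -0.014 without them, and Sptlc2 at 0.018 with library weights. The male minus female difference from CTL changed sign with the number 9 pups as male and without them for Cers2 (-0.019 and -0.0049) and Degs1 (0.084 and 0.013) in LB and Gal3st1 (-0.015 and -0.022) in UPS. Elovl7 in LB lost its call without a filter (adjusted p = 0.095 from limma), with rearing alone (0.053), with all libraries (0.077) and without the number 9 pups (0.064). In UPS, Ugt8a passed with median-of-ratios scaling (0.049), Aspa lost its call without a filter (0.064) and Gal3st1 with rearing alone (0.13).

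Leaving out 1 pup gave 677 to 1581 genes and 5 to 7 of the 9 genes for LB against CTL, 913 to 2169 and 4 to 7 for UPS against CTL, and 4 to 22 and 0 for LB against UPS. The highest counts came without the male LB pup 5 (7 of the 9 genes, with Elovl1 at -0.35, adjusted p = 0.033 from limma) and without the female UPS pup 2 (5 of the 9). Aspa in UPS lost its call without the male CTL pup 6 (adjusted p = 0.052). The log2 values that changed sign ran from -0.025 to 0.10 for Sptlc2 in UPS, and in UPS minus LB from -0.063 to 0.047 for Degs1, -0.040 to 0.064 for Elovl7, -0.0027 to 0.059 for Cers2 and -0.092 to 0.036 for Sptlc2.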
